A study of Caenorhabditis elegans with 36 samples.

Results

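The genes of C. elegans named math (MATH domain) or bath (BTB and MATH domains) made up 85 of the 20167 genes measured, with 48 math and 37 bath genes. They were taken by name, keeping the first entry of the 3 genes that have more than 1 (math-27, bath-43 and bath-44) and leaving out math-18. RefSeq lists 72 of them as protein coding and 12 as pseudogenes, and math-36 had no match there by sequence name. RNA polymerase II phosphorylated at serine 2 (Pol II), the elongating form, and histone H3 trimethylated at lysine 9 (H3K9me3), a mark of repressed chromatin, were measured by ChIP-seq of whole young adults. The wild type N2 (WT) and the mutant hrde-1(tm1200) were each followed as 1 lineage from 15 °C to 23 °C and back to 15 °C, on E. coli OP50. Each strain gave 1 library per mark at 15 °C before heat (generation 3, 15C-G3), 3 at 23 °C (generations 2, 4 and 6 of that phase, written 23C-G2 and so on) and 2 once back at 15 °C (generations 1 and 2, p15C-G1 and p15C-G2), each with an input library. Where 6 values of a gene are given, they run in that order. The libraries of a phase are successive generations of that lineage from the second biological repeat, so that p-values measure only the spread between them. Adults at 15 °C and 23 °C were collected at different hours after the first larvae were plated, so that heat and stage cannot be told apart.

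The MATH domain (meprin and TRAF homology) binds other proteins, and in BATH proteins it is joined to a BTB domain, which can dock on the cullin CUL-3. In C. elegans the BTB and MATH protein MEL-26 brings the katanin subunit MEI-1 to a CUL-3 ubiquitin ligase, which marks MEI-1 for destruction after meiosis. The family is expanded in C. elegans, and most of its genes have no assigned role. HRDE-1 is an Argonaute of the germline nucleus that, guided by small RNAs, represses transcription and directs H3K9me3 to its targets. The comparisons ask where the family carries the mark and the polymerase, and how both differ without HRDE-1 and through heat.

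Values are RPKM, read density scaled to gene length and to library size. In megareads (M), depth was estimated from the values as 3.07 to 5.66 M per Pol II library, 2.07 to 7.97 M per H3K9me3 library and 0.221 to 1.31 M per input library. Reads at the median member numbered 32 to 84 per Pol II library, 59 to 326 per H3K9me3 library and only 4 to 28 per input library. Pol II at hrde-1 itself was 140 ± 28.2 RPKM in WT and 94.2 ± 19.4 in the mutant (SD, n = 6), which was not called, and a value over the whole gene cannot show a deletion within it. Summed Pol II over 9 germline genes was 603 to 987 RPKM in WT and 510 to 881 in hrde-1, and over 6 sperm genes 18.5 to 56.3 and 26.9 to 51.8. Some lists stood apart within a phase, with 5 intestine genes at 761 to 825 RPKM in WT and 424 to 537 in hrde-1 at p15C, 4 muscle genes at 37.3 and 66.7 at 15C, and the sperm genes at 18.5 and 37.2 at 15C. All genes of the germline, sperm, intestine, muscle, neuron and embryo lists were detected, and 0 of them were called in Pol II. Of all genes, at most 0.825% were called in 1 direction in Pol II in any comparison. The part of these lists in the differences given here was not tested. In whole animals, fewer cells of a type and less signal per cell cannot be told apart.

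Of the 85 members, 71 lie on chromosome II. On its left arm, 45 math and 14 bath genes form a cluster of 59 (II:1026976-2122182 in WS190) among 232 other genes. A group of 9 bath genes lies farther in (II:2520966-3733125), 3 more (bath-44, bath-38 and bath-45) lie farther still, and 14 members are on other chromosomes. Joining neighbours at most 10 kb apart put 62 members into 11 runs, of which the longest holds 21 genes from math-15 to bath-2 (II:1866394-1922746). The values of close neighbours are not independent, because the counted window appears to reach about 500 bp beyond each gene and 45 members then share counted sequence with another member. In 29 members the estimated reads were not whole in over 50% of the libraries, as where a read with several perfect matches is divided, so that similar genes may share signal.

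The WT levels differed by place. Members of the cluster had a median of 18.1 RPKM of H3K9me3, against 7.54 for all genes, and of 2.41 RPKM of Pol II, against 4.44. Members on other chromosomes had medians of 4.72 RPKM of H3K9me3 and 14.3 of Pol II. Of the 85 members, 70 were above the median gene in H3K9me3 and 52 were in the top 10% of genes. The high mark was shared by the other genes between the first and last member of the cluster, whose median was 15.9 RPKM. Input medians were 6.76 RPKM in the cluster, 7.63 for members on other chromosomes and 8.03 over all genes.

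The members highest in H3K9me3 in WT were math-48 (40.8 ± 4.02 RPKM), math-47 (36.4 ± 4.11), math-38 (36.2 ± 5.92), bath-21 (30.1 ± 3.43) and math-49 (29.7 ± 2.23), with the SD over 6 libraries. The ranges of math-48 (36.1 to 46.1), math-47 (30.7 to 41.4) and math-38 (27.1 to 43.2) overlap, so their order is not resolved. Of these, math-47, math-48 and math-49 belong to the run of 4 genes that ends at math-50 (II:1937136-1958256). The lowest were bath-42 (1.99 ± 0.244), bath-41 (2.14 ± 0.27), bath-36 (2.53 ± 0.601), math-33 (2.57 ± 0.453) and bath-44 (2.61 ± 0.54).

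Pol II gave nearly the opposite order at its upper end. It was highest at bath-42 (36.7 ± 4.73 RPKM), bath-44 (35.8 ± 6.56), bath-40 (34.1 ± 2.96), bath-36 (33.8 ± 5.71) and math-33 (27.6 ± 4.24), the ortholog of the deubiquitinase USP7. All 5 lie outside the cluster, and 4 of them are among the 5 lowest in H3K9me3. The lowest Pol II was found in the run from math-15 to bath-2, at math-11 (1.12 ± 0.44), math-6 (1.13 ± 0.455), math-5 (1.16 ± 0.51), math-8 (1.29 ± 0.617) and math-9 (1.29 ± 0.454). Across the 85 members, WT levels of both marks were related at Spearman rho = -0.27 and Pearson r = -0.55 of log2 values, and across all 20167 genes at -0.64 and -0.67. These describe genes that share libraries and, in part, sequence. Some members carried both, such as bath-29 with 24.3 RPKM of H3K9me3 and 17.1 of Pol II.

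**Figure D1:**
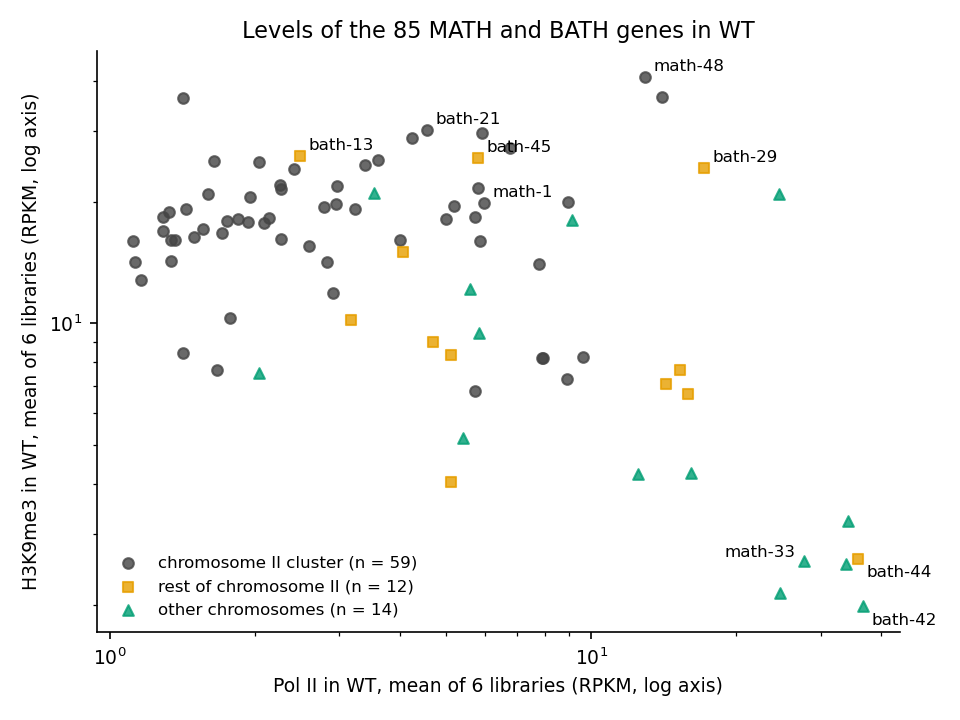
Mean Pol II (horizontal axis) and H3K9me3 (vertical axis) of the 85 members over the 6 WT libraries, in RPKM on log axes, with 1 point per gene marked by its place in the genome. Most of the 59 cluster members sit at the upper left, and bath-42 (36.7 RPKM of Pol II and 1.99 of H3K9me3), bath-44 and math-33 sit at the lower right.

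Without HRDE-1, H3K9me3 was lower over much of the family. The median member had 14.7 to 18.2 RPKM in the 6 WT libraries and 10.2 to 11.7 in the 6 hrde-1 libraries, which did not overlap. The median of all genes was 6.79 to 8.03 RPKM in WT and 7.66 to 8.11 in hrde-1, and that of the members on other chromosomes 4.35 to 5.65 and 4.4 to 5.67. In 38 of the 85 members (44.7%), all 6 hrde-1 libraries were below all 6 WT libraries, against 3.17% of all genes. No member showed the reverse, against 1.57% of all genes. Paired by generation, hrde-1 was below WT at each of the 6 in 53 members (62.4%), against 6.83% of all genes, and above WT at each in 1, against 10.4%. All 6 hrde-1 libraries were also below all 6 WT libraries in 5 of the 21 genes named btb (23.8%), and in 14.4% of 305 F-box genes, another large family of ubiquitin ligase adaptors. The same was found in 16.4% of the 232 other genes of the cluster and in 3.04% of the other genes of chromosome II. Input separated in 0 members in either direction, against 0.283% of all genes lower and 0.322% higher.

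The 38 members kept 17.9% to 79.7% of their WT mean in hrde-1, with a median of 67.1%. They were 25 of the 48 math genes and 13 of the 37 bath genes, and 32 of them lie in the cluster. The other 6 were bath-13, bath-29, bath-45, bath-34, bath-35 and math-43, and 7 of the 38 are pseudogenes. Among the 56 members with whole reads in most libraries, 23 (41.1%) separated.

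For the tests, limma was fitted to log2(RPKM + 1) of all genes, and a gene was called at a Benjamini-Hochberg adjusted p of at most 0.1 with at least a 2-fold difference. In hrde-1 against WT, H3K9me3 was called lower in 9 of 85 members at 15C (0.982% of all genes were called lower), in 10 at 23C (0.838%) and in 9 at p15C (0.902%). It was called higher by limma in 0 members at 15C (0.0992% of all genes), at 23C (0.00992%) and at p15C (0.00992%), with 0, 1 and 0 higher at an unadjusted p under 0.05. The members' median log2 difference was -0.41 at 15C, -0.29 at 23C and -0.42 at p15C, against 0.05, 0.06 and 0.09 over all genes. After quantile normalization the members' medians were smaller, at -0.23, -0.20 and -0.20, and after input subtraction larger, at -0.71, -0.84 and -0.84. Without the fold minimum the counts were 15, 27 and 24. The shares of all genes at that looser threshold are not given, so these counts cannot be read as an excess. Together 12 members were called, 7 of them at all 3 phases (bath-1, bath-13, bath-20, bath-24, bath-29, bath-45 and math-1), and all 12 are among the 38. With the thin input subtracted, bath-13, bath-29 and bath-45 were called at all 3 phases, and bath-19, bath-24, math-1, math-31, math-44 and bath-5 lost each of their calls. Each lost call of these 6 had a larger fold after subtraction, such as -2.42 at bath-24 and -1.88 at math-1 at 23C (limma adjusted p = 0.3 and 0.41) and -2.73 at bath-5 at 15C. Subtraction can raise a fold by itself, and it sets values under input to 0. At bath-5 in hrde-1 at 15C, for example, H3K9me3 was 4.88 RPKM and input 5.29. The larger folds therefore cannot stand for the lost calls. Of the 12, bath-19, bath-20, bath-21, bath-29, bath-45 and math-1 did not have whole reads in most libraries. At 15C each strain has 1 library, which is assumed to vary like those of the other phases.

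The called members were mostly bath genes, while nearly all math genes had differences below 0. Of the 37 bath genes 8 were called at 23C, with 26 below 0 and a median of -0.21. Of the 48 math genes 2 were called (math-1 and math-31), with 45 below 0 and a median of -0.34. The difference between math and bath genes was not tested. Among the 305 F-box genes 8 were called lower at 23C, with a median of -0.11, and among the other 232 genes of the cluster 6, with a median of -0.18. Of the 21 btb genes 2 (9.52%) were called lower at 23C, with a median of -0.22.

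**Figure D2:**
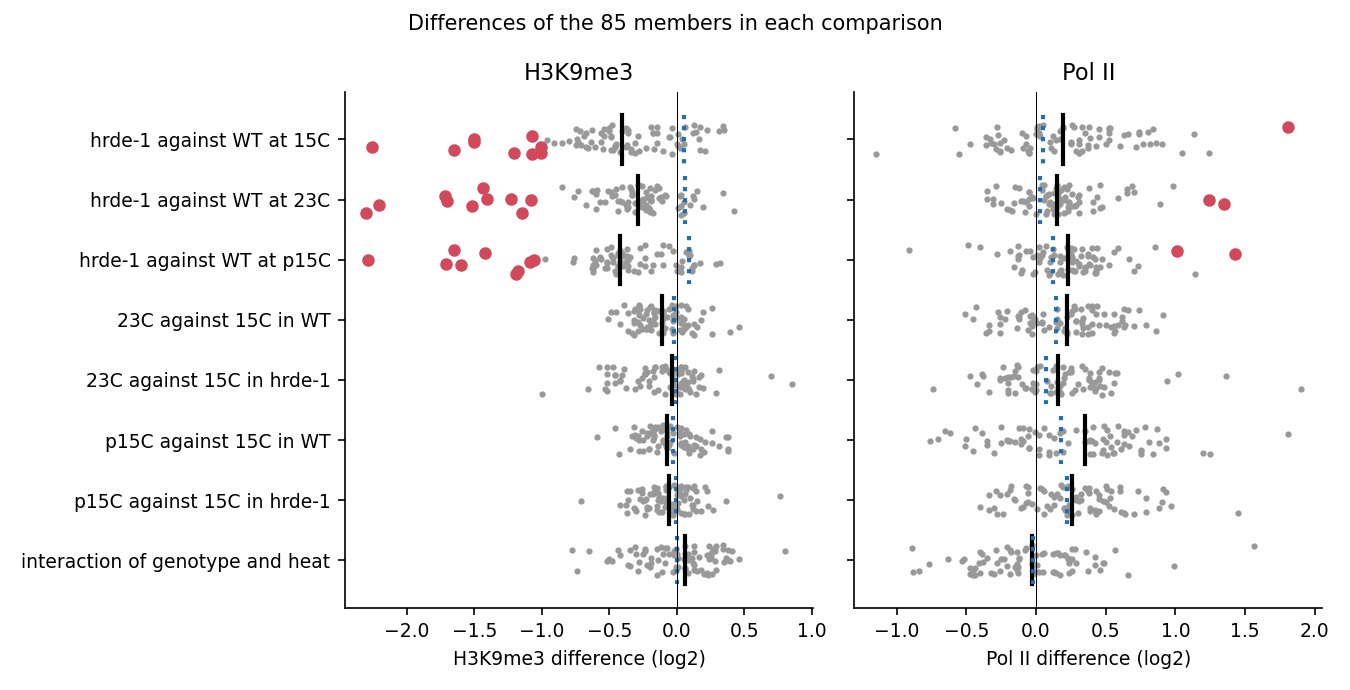
Log2 differences of the 85 members (points) in 8 comparisons for each mark. Red points were called, the black bar is the median of the members and the dotted blue line that of all genes. Called members appear only in the 3 comparisons of hrde-1 with WT, on the lower side for H3K9me3 and on the higher side for Pol II.

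At 23C, bath-20 (II:2040396-2041616) had the largest difference of the 85 members. In WT its H3K9me3 was 28.2 RPKM at 15C, 25.4, 32.5 and 26.3 at 23C, and 25.3 and 25.6 at p15C. In hrde-1, in the same order, it was 8.32, then 5.56, 5.04 and 4.14, then 7.26 and 6.99. The strains were far apart at every generation, and the 3 hrde-1 libraries at 23C were the lowest of all. The log2 difference was -1.65 ± 0.2 (SE) at 15C, -2.30 ± 0.12 at 23C and -1.71 ± 0.14 at p15C, with limma adjusted p of 8.3e-05, 2.9e-10 and 2.7e-07. Within hrde-1, the difference of 23C from 15C at bath-20 was -0.66 ± 0.16 and was not called (limma adjusted p = 0.17).

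The gene bath-45 (II:13122946-13124697) stands alone, far from the cluster. Its H3K9me3 in WT was 30.2 RPKM at 15C, 24.4, 29.5 and 20.6 at 23C, and 24 and 25.5 at p15C. The mutant had 5.51, then 4.69, 4.68 and 4.21, then 4.44 and 4.07. Every hrde-1 library was below the median gene, while every WT library was far above it. The log2 difference was nearly the same at each phase, at -2.26 ± 0.2, -2.21 ± 0.12 and -2.29 ± 0.14 (limma adjusted p = 2.6e-06, 5.2e-10 and 1.5e-08). The nearest genes on either side, F29C12.4 at -0.43 and F29C12.6 at 0.23 at 23C, were not called.

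A further isolated gene was bath-13 (II:2520966-2522045), whose counted window meets no other gene. Its H3K9me3 in WT was 28.8 RPKM at 15C, 21.9, 28.8 and 24.4 at 23C, and 25.3 and 26.8 at p15C. In hrde-1 it was 9.52, then 9.2, 6.7 and 5.14, then 8.82 and 7.1. The highest hrde-1 library was well under the lowest WT library, and the log2 differences were -1.50 ± 0.26, -1.72 ± 0.15 and -1.60 ± 0.19 (limma adjusted p = 0.0038, 3.4e-07 and 2.1e-05). The 4 genes around it, from -0.32 to 0.06 at 23C, were not called.

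The long gene bath-29 (II:3350254-3358965) lies in a run of 7 bath genes, of which it alone was called. Its H3K9me3 in WT was 29.6 RPKM at 15C, 21.6, 23.6 and 21.7 at 23C, and 22.9 and 26.6 at p15C. In the mutant it was 9.79, then 8.09, 6.48 and 6.82, then 8.08 and 9.09. The strains did not overlap, and the log2 difference was -1.52 ± 0.11 at 23C (limma adjusted p = 1.7e-08). At bath-28, bath-30 and bath-27, its nearest family neighbours, the differences were -0.25, -0.19 and -0.19 and none was called. The gene F14D2.9, which overlaps bath-29 and shares its reads, was at -2.01 and was called.

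**Figure D3:**
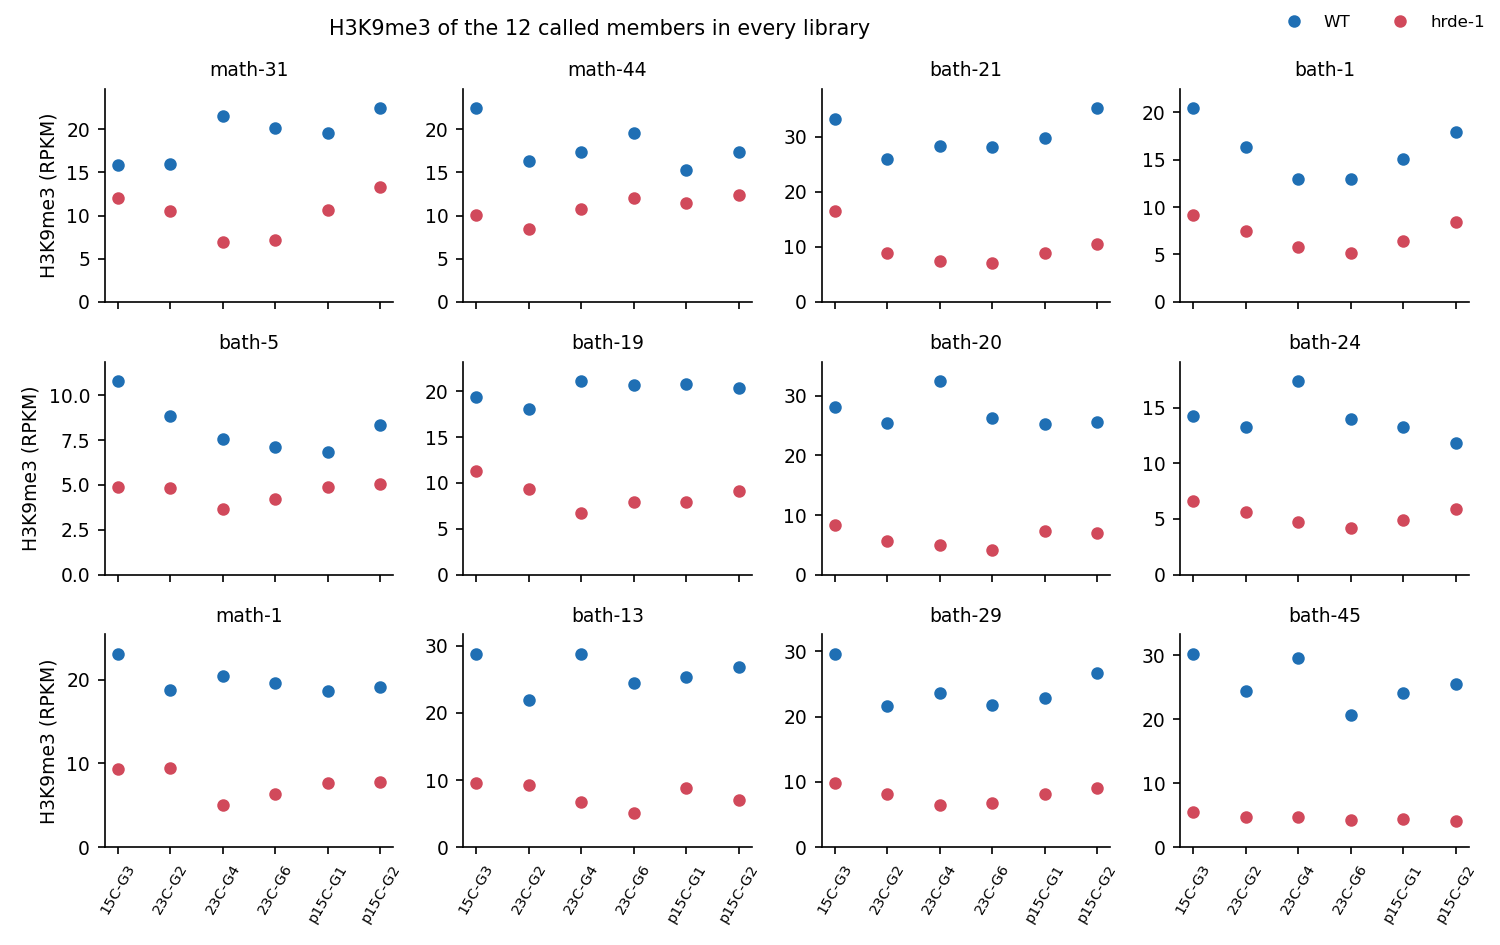
H3K9me3 in RPKM at each of the 6 generations in WT (blue) and hrde-1 (red) for the 12 members called in any phase, with 1 library per point. Each hrde-1 point lies below each WT point of the same gene, with bath-20 at 4.14 to 8.32 RPKM in hrde-1 and 25.3 to 32.5 in WT.

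Most called members of the cluster lie side by side near its right end. A stretch of 28.6 kb (II:2018022-2046657) holds 13 genes, of which 11 were called lower at 23C. Its borders were set at the first and last called genes. Neither this share nor the lack of a call just beyond them is therefore a test. The called genes were 6 of its 8 members (bath-21, bath-1, bath-19, bath-20, bath-24 and math-1) and all 5 others (F59H6.3, F59H6.2, the cyclin A gene cya-2, btb-4 and btb-3). The 2 members not called at 23C were bath-3 at -0.38 and bath-5 at -0.76, which also had the least mark there in WT, at 7.26 and 8.26 RPKM. The 5 genes that follow math-1 were between -0.38 and 0.03 and none was called. Because bath-24 shares its window with math-1 and btb-3, and bath-1 shares its window with bath-3, not all of these values are independent.

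**Figure D4:**
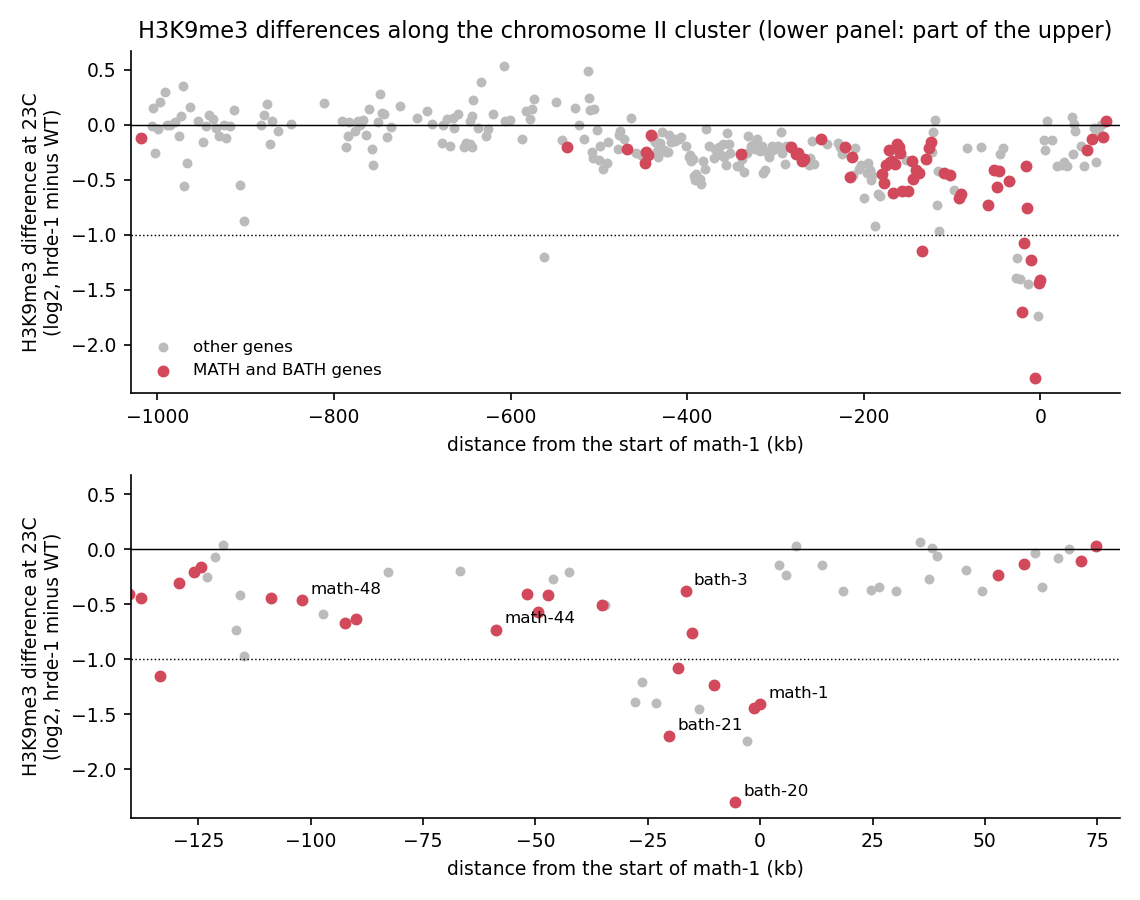
Log2 difference in H3K9me3 of hrde-1 from WT at 23C (vertical axis) by distance in kb from the start of math-1 (horizontal axis), over the whole cluster and close to math-1, with family members and other genes marked apart. The dotted line is a 2-fold loss, and of the 13 genes below it 11 lie in the 28.6 kb stretch that ends at math-1, where bath-20 is at -2.30. The other 2 are math-31 at -1.15 and lips-14 at -1.20.

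In that stretch, bath-21 (II:2025643-2026611) had 33.2 RPKM of H3K9me3 at 15C in WT, 26, 28.3 and 28.2 at 23C, and 29.8 and 35.2 at p15C. In hrde-1 it had 16.5, then 8.81, 7.45 and 7.1, then 8.88 and 10.5. The hrde-1 library at 15C-G3 was the highest of its strain but still under all WT libraries. The log2 difference was -0.96 ± 0.2 at 15C, short of 2-fold and so not called, -1.70 ± 0.11 at 23C and -1.65 ± 0.14 at p15C (limma adjusted p = 0.015, 8.6e-09 and 3.8e-07). Within hrde-1, bath-21 was at -1.0 ± 0.16 at 23C against 15C (limma adjusted p = 0.029), just under the fold minimum, and it was called at -1.04 with a pseudocount of 0.5 and at -1.12 after quantile normalization.

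At math-1 (II:2045964-2046657) H3K9me3 in WT was 23.1 RPKM at 15C, 18.8, 20.4 and 19.6 at 23C, and 18.7 and 19.1 at p15C. In hrde-1 it was 9.39, then 9.5, 5.04 and 6.36, then 7.63 and 7.75. The strains did not overlap, and math-1 was called at each phase, at -1.21 ± 0.25, -1.41 ± 0.14 and -1.19 ± 0.18 (limma adjusted p = 0.015, 2.8e-06 and 0.00034).

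The remaining members of the stretch are given by their ranges. At bath-24, WT had 11.8 to 17.4 RPKM and hrde-1 4.18 to 6.59, and the log2 difference at 23C was -1.44 ± 0.13. At bath-19, WT had 18 to 21.1 RPKM and hrde-1 6.7 to 11.3, with -1.23 ± 0.11 at 23C and no call at 15C (-0.73). At bath-1, WT had 13 to 20.4 RPKM and hrde-1 5.2 to 9.2, with -1.08 ± 0.13 at 23C. This last call rested on single libraries, being -0.98 without WT 23C-G2 and -0.99 without hrde-1 23C-G6 at 23C, and -0.94 without WT p15C-G2 and -0.89 without hrde-1 p15C-G1 at p15C. Likewise bath-24 at p15C was -1.09, and -0.97 without hrde-1 p15C-G1. The gene bath-5 (6.84 to 10.8 RPKM in WT and 3.65 to 5.05 in hrde-1) was called at 15C only, at -1.01 ± 0.22, where each strain has 1 library. Mean H3K9me3 at bath-5 in WT was 8.26 RPKM, near its mean input of 7.88 and the median of all genes (7.54).

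Elsewhere in the cluster, 2 math genes passed in 1 phase each. At math-31, WT had 15.8 to 22.4 RPKM and hrde-1 6.96 to 13.3, with a call at 23C of -1.15 ± 0.14 (limma adjusted p = 3.7e-05) and differences of -0.36 at 15C and -0.77 at p15C. At math-44, WT had 15.3 to 22.4 RPKM and hrde-1 8.43 to 12.4, with a call at 15C of -1.07 ± 0.21 (limma adjusted p = 0.0097) and differences of -0.73 at 23C and -0.43 at p15C. Both genes separated between the strains, and neither shares its window with another gene.

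The run from math-47 to math-50, the richest in H3K9me3, kept most of its mark. It went from 36.4 ± 4.11 to 24.2 ± 1.9 RPKM at math-47, from 40.8 ± 4.02 to 26.6 ± 2.12 at math-48, from 29.7 ± 2.23 to 18.2 ± 0.656 at math-49 and from 28.9 ± 3.62 to 17.9 ± 1.47 at math-50 (SD, n = 6). At 23C the log2 differences were -0.44, -0.46, -0.67 and -0.63, and none reached 2-fold. In hrde-1 these genes still had more mark than any of the 12 called members, whose hrde-1 means were 4.59 to 10.8 RPKM.

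Outside chromosome II, 0 of 14 members were called, which is near the share of all genes called lower at 23C (0.838%). The neighbours bath-34 and bath-35 separated without reaching 2-fold, from 20.9 ± 2.12 to 14 ± 3.03 RPKM at bath-34 and from 18 ± 2.04 to 9.85 ± 1.72 at bath-35. At p15C, bath-35 was at -0.98 ± 0.16 (limma adjusted p = 0.00092) and passed 2-fold with a pseudocount of 0.5 (-1.02), after median centring (-1.08), without WT p15C-G2 (-1.03) and without hrde-1 p15C-G2 (-1.12). The X-linked pseudogene math-43 went from 21.1 ± 1.77 to 15.2 ± 1.49 RPKM. The members with high Pol II had little mark in both strains, with math-33 at 2.57 and 2.82 RPKM, bath-42 at 1.99 and 2.65, and bath-43, named spop-1 in RefSeq after the SPOP ubiquitin ligase adaptor, at 4.25 and 4.57.

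Pol II was higher in hrde-1 at far fewer members. It was called higher in 1 of 85 at 15C (0.492% of all genes were called higher), in 2 at 23C (0.795%) and in 2 at p15C (0.825%), and lower by limma in 0 (0.0646%, 0.0547% and 0.124%), with 1, 0 and 1 lower at an unadjusted p under 0.05. With generation as a block, 5 were called at 15C, adding bath-13 (1.24), bath-20 (1.05) and math-19 (1.13) on the higher side and bath-10 (-1.15) on the lower side, 2 at 23C and 3 at p15C. The share of all genes called with the block is not given, so these counts cannot be set against it. All 6 hrde-1 libraries were above all 6 WT libraries in 5 members (5.88%), math-1, bath-13, math-48, bath-24 and bath-45, against 1.26% of all genes, and 0 members showed the reverse, against 0.372%. Pol II was higher in hrde-1 at each of the 6 generations in 22 members (25.9%), against 8.73% of all genes, and lower at each in 2, against 6.72%. Pol II also separated upward in 2.95% of the F-box genes, 3.45% of the other 232 genes of the cluster and 0 btb genes. The median log2 differences of the members were 0.19, 0.15 and 0.23 at the 3 phases, against 0.05, 0.03 and 0.12 over all genes. Medians were -0.06, 0.13 and 0.24 for F-box genes, -0.07, 0.13 and 0.26 for the other cluster genes, and -0.03, 0.07 and 0.17 for btb genes. At 23C and p15C the rise of the members' median was therefore not particular to the family. Median centring, which shifts all genes together, gave members 0.01, 0.05 and 0.05 and all genes -0.14, -0.08 and -0.07, so that members stayed above all genes by 0.15, 0.13 and 0.12. After quantile normalization they stayed above by 0.07, 0.06 and 0.06. Input differed in the same direction, with member medians of 0.18, 0.23 and 0.13 against 0.03, 0.06 and 0.00 over all genes and 0 genes called by limma (1053, 2360 and 661 at an unadjusted p under 0.05), and its part in the Pol II medians was not tested. After input subtraction, which sets values under input to 0, the medians of members and of all genes were both 0.0 at each of the 3 phases. In WT the median over members was 3.61 RPKM of Pol II and 6.97 of input, so the subtracted medians cannot show whether members stayed above all genes.

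The clearest was math-1, the only member called at all 3 phases. Its Pol II in WT was 5.15 RPKM at 15C, 4.68, 5.3 and 6.22 at 23C, and 8.24 and 6.33 at p15C. The mutant had 20.6, then 14.7, 16.2 and 14.7, then 20.3 and 22.2. Every hrde-1 library was above every WT library, by log2 differences of 1.81 ± 0.25, 1.35 ± 0.14 and 1.43 ± 0.18 (limma adjusted p = 0.0023, 8.9e-05 and 0.00055). After subtraction of the thin input the differences were 3.12, 2.15 and 3.0, and none of the 3 calls held (limma adjusted p = 1 at each phase). These folds do not show a larger difference, because subtraction sets values under input to 0. In WT, Pol II at math-1 was under input at 15C (5.15 against 11.3 RPKM) and in all 3 libraries at 23C (input of 14.4, 14.7 and 9.88). Within hrde-1, the difference of 23C from 15C was -0.42 ± 0.2 and was not called.

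At bath-13 Pol II started lower. It was 1.27 RPKM in WT at 15C, 2.52, 1.69 and 3.07 at 23C, and 3.1 and 3.27 at p15C. The mutant had 4.36, then 4.51, 7.75 and 9.52, then 8.62 and 7.89. The strains separated, with a call at 23C of 1.24 ± 0.25 (limma adjusted p = 0.024) and differences of 1.24 at 15C and 1.14 at p15C that were not called. Mean Pol II at bath-13, 2.49 RPKM in WT and 7.11 in hrde-1, was under its mean input of 6.13 and 9.44. The median over all genes was also lower in Pol II than in input (4.44 and 8.03 RPKM in WT, 5.03 and 8.51 in hrde-1). Pol II under input therefore does not by itself place bath-13 near background, though its WT values are low, below the median gene. With generation as a block, bath-13 was also called at p15C (adjusted p = 0.014). The call at 23C was lost without WT 23C-G4 (1.08, limma adjusted p = 0.13), without 23C-G4 of hrde-1 (1.17, 0.15), without its 23C-G6 (1.04, 0.19), and when only the libraries compared were fitted (0.16). It was also lost with a pseudocount of 3 (0.90) and after input subtraction (0.69, limma adjusted p = 1). At p15C, bath-13 was called when only the libraries compared were fitted (limma adjusted p = 0.00033), and when 23C-G2 of WT (0.074) or of hrde-1 (0.046) was left out.

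At math-48, which kept 26.6 RPKM of H3K9me3 in hrde-1, Pol II in WT was 12.8 RPKM at 15C, 16, 11.7 and 15.1 at 23C, and 10.5 and 11.6 at p15C. In hrde-1 it was 20.4, then 30.9, 25.5 and 25.1, then 23.2 and 23.3. The strains separated, with 0.63 ± 0.24 at 15C, 0.89 ± 0.14 at 23C and, called, 1.01 ± 0.17 at p15C (limma adjusted p = 0.78, 0.0028 and 0.0069). The call was lost after median centring (0.82), without WT p15C-G1 (0.95), without hrde-1 p15C-G2 (1.01, on the adjusted p alone) and with a pseudocount of 3 (0.90). It was also lost after input subtraction (2.63, limma adjusted p = 1), where WT p15C-G2, at 11.6 RPKM with an input of 14.8, was set to 0.

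Its neighbour math-49 had 4.82 to 7.88 RPKM in WT and 7.74 to 15.2 in hrde-1, with 0.98 ± 0.17 at 23C (limma adjusted p = 0.0067), just short of 2-fold, and was called at 1.03 with a pseudocount of 0.5, at 1.11 when WT 23C-G2 was left out, and at 1.00 and 1.03 when 23C-G4 or 23C-G6 of hrde-1 was. The other 2 members that separated were bath-24, at 6.42 to 10.0 RPKM in WT and 10.1 to 15.8 in hrde-1, and bath-45, at 5.03 to 6.43 and 7.91 to 10.5. Neither was called at 23C, with 0.70 ± 0.16 and 0.46 ± 0.16 (limma adjusted p = 0.065 and 0.59). At bath-20, whose H3K9me3 difference was largest, Pol II in WT reached 8.31 RPKM and the lowest hrde-1 library was 8.3, so that the strains just overlapped.

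**Figure D5:**
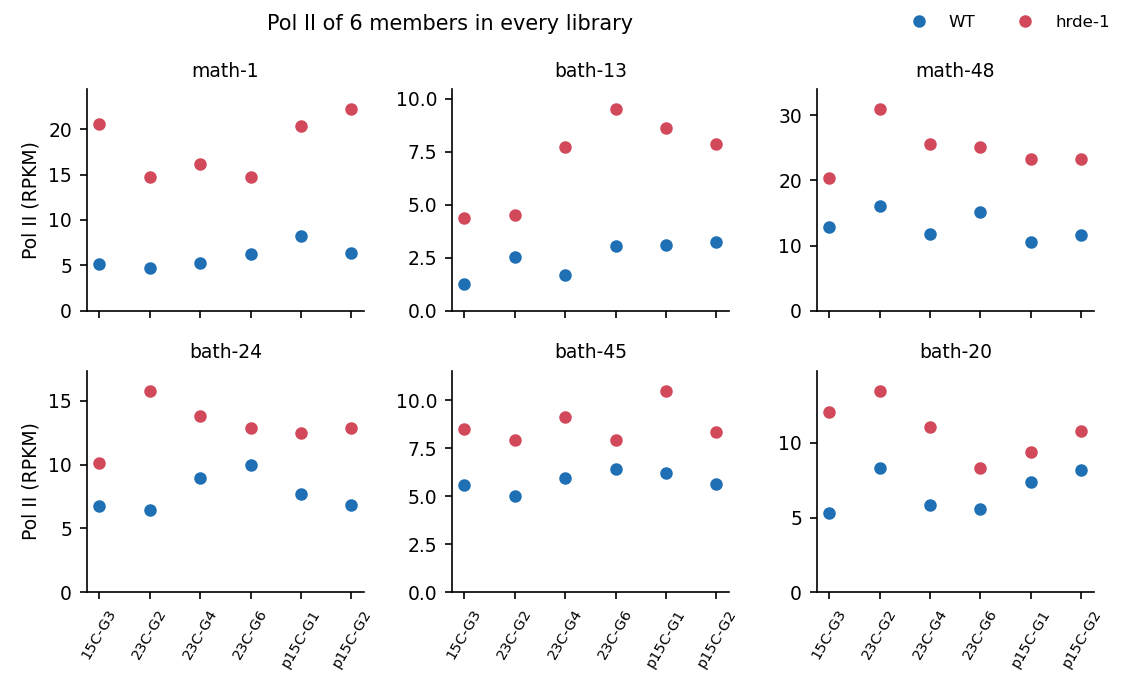
Pol II in RPKM at each of the 6 generations in WT (blue) and hrde-1 (red) for math-1, bath-13, math-48, bath-24, bath-45 and bath-20, with 1 library per point. Only at bath-20 do the strains overlap, and math-1 has 14.7 to 22.2 RPKM in hrde-1 against 4.68 to 8.24 in WT.

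Both marks were called at math-1 and bath-13 alone, so that 10 of the 12 members called in H3K9me3 were not called in Pol II at any phase. Across the 85 members, the log2 differences of both marks at 23C were related at Spearman rho = -0.41 and Pearson r = -0.51. At bath-29 H3K9me3 went from 24.3 ± 3.16 to 8.06 ± 1.27 RPKM while Pol II went from 17.1 ± 2.28 to 21.7 ± 2.34 RPKM (0.28 ± 0.13 at 23C, not called).

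Through heat and after it, 0 members were called in either mark. The counts below are of members at an unadjusted p under 0.05, while the shares in brackets are of all genes called, a stricter threshold. The share of all genes at an unadjusted p under 0.05 is not given, so the counts cannot be read as an excess. In Pol II, 23C against 15C gave 6 members at an unadjusted p under 0.05 in WT (by limma 0.0149% of all genes were called higher) and also 6 in hrde-1 (0.179% higher and 0.0497% lower). For p15C against 15C, Pol II gave 18 such members in WT (0.0945% called higher and 0.00497% lower) and 5 in hrde-1 (0.0149% higher). In H3K9me3, 23C against 15C gave 7 such members in WT (0.0496% called lower) and 16 in hrde-1 (0.00496% called higher and 0.0595% lower), of which 14 were lower. For p15C against 15C, H3K9me3 gave 4 such members in WT and 4 in hrde-1 (0.00992% called lower). The difference of the heat response between the strains gave 0 such members in Pol II (0.00497% called higher) and 6 in H3K9me3. With generation as a block, 1 member, bath-10, was called for that difference in Pol II, at 1.56 (limma adjusted p = 0.016).

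The widest differences with heat were seen at low values. At bath-10, Pol II in hrde-1 was 1.13 RPKM at 15C, 3.24, 9.85 and 9.9 at 23C, and 5.25 and 4.39 at p15C. In WT it was 3.73, then 2.07, 7.25 and 7.39, then 4.0 and 3.63. In both strains 23C-G4 and 23C-G6 were high and 23C-G2 was not, and the difference of 23C from 15C was 1.90 ± 0.56 in hrde-1 (limma adjusted p = 0.41) and 0.34 ± 0.56 in WT. Without hrde-1 23C-G2 it was called in hrde-1 at 2.35 (limma adjusted p = 0.026), and without WT 23C-G2 at 1.90 (0.028). Its neighbour bath-9, which shares counted sequence with it, was at 1.36 ± 0.49 in hrde-1 and was called at 1.73 without hrde-1 23C-G2. At math-44, Pol II in hrde-1 was 4.13 RPKM at 15C, 10.6, 8.87 and 8.72 at 23C, and 5.37 and 4.36 at p15C. In WT it was 3.55, then 7.58, 4.61 and 5.01, then 4.4 and 4.74. The difference of 23C from 15C at math-44 in hrde-1 was 1.02 ± 0.27 and was not called, but it was called without WT 23C-G2.

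At math-14, Pol II in WT was 1.77 RPKM at 15C, 1.2, 1.29 and 2.37 at 23C, and 8.92 and 8.48 at p15C. The mutant had 3.64, then 1.52, 1.62 and 2.27, then 5.45 and 3.14. Both WT libraries after heat stood above the other 4 of WT, and the difference of p15C from 15C was 1.81 ± 0.38 (limma adjusted p = 0.16), which was not called. It was called without WT 23C-G2 (limma adjusted p = 0.041), WT 23C-G6 (0.063) or hrde-1 23C-G2 (0.09), and when only the WT libraries compared were fitted. That last fit has 1 library at 15C and 2 at p15C, so at each gene its spread comes only from the p15C libraries (here 8.92 and 8.48). Against WT, hrde-1 at p15C was at -0.91 ± 0.31 and was called lower at -1.10 after median centring and -1.16 after quantile normalization.

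The partners of BATH proteins were looked at in the same way. Of 20 genes of the CUL-3 pathway, 0 were called by limma in any of the 8 comparisons of either mark. At most 0.982% of all genes were called in 1 direction in any comparison, so 0 of 20 is near that share. Between the strains 0 of the 20 separated in either mark, against at most 3.17% of all genes in 1 direction. At 23C their Pol II differences ran from -0.28 at uba-1, the ubiquitin activating enzyme, to 0.09 at rfl-1, an enzyme of the NEDD8 pathway, and 0 of them reached an unadjusted p under 0.05. Pol II at mel-26 was 36.8 ± 2.9 RPKM in WT and 33.6 ± 4 in hrde-1, and at cul-3 18.8 ± 1.54 and 17.7 ± 1.65. In H3K9me3 the highest was rbx-2, a RING protein of cullin ligases, at 0.72 (limma adjusted p = 0.0073), short of 2-fold.

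The gene left out by name, math-18 (II:2154013-2155221), lies just beyond the cluster. At 23C its Pol II was 2.6 ± 0.985 RPKM in WT and 53.0 ± 17.1 without HRDE-1 (SD, n = 3), a log2 difference of 3.90 (limma adjusted p = 2.6e-07), and its H3K9me3 was called lower at -1.62. Counting it would make the members called higher in Pol II 2, 3 and 3 at the 3 phases, and those called lower in H3K9me3 10, 11 and 10.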

How the data were processed

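ChIP and input libraries of WT and hrde-1 animals were compared as RPKM values that the authors deposited per gene. Per the submitters' notes, reads were aligned with Bowtie 0.12.7, and per the study's methods to WS190 with perfect matches on both strands, and RPKM was reads per gene over total reads and gene length. Values gave whole reads (within 0.02) for a median 73.39% of genes when 999 bp were added to gene length, against 3.85% without, which is the source of the window and depths given. Genes under a mean of 1 RPKM were left out (20116 tested for Pol II, 20167 for H3K9me3). limma 3.58.1 (R 4.3.3) was fitted with a mean per strain and phase over 12 libraries (6 residual degrees of freedom), with an intensity trend, for 8 comparisons per mark, after a check on simulated data. Same-numbered generations deviated together in Pol II (r = 0.709, 0.355 and 0.496 at 23C), so values with generation as a block are given where they change a call; in H3K9me3 they did not.

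The members and lists were chosen with earlier results of these data known. Genes considered for naming were all members called, the 5 largest differences each way, and the 5 highest and lowest in each mark. All called members are given, but not all of the largest differences. Alternatives were the pseudocount, filter, scaling, input subtraction, libraries fitted, the block, the fold minimum and each library left out.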

Additional observations from a re-analysis of the deposited data

How the results depend on the processing

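Of 390 recounts of called members, 349 stayed within 1.5 times the count reported and 41 did not. Of 729 recomputed calls 686 held, 43 were lost and 0 reversed. Most of the recounts are of comparisons with 0 members, where 0 against 0 counts as unchanged. Both totals also include leaving out libraries of phases or strains not compared, which changes only the spread. The totals therefore say little about how stable the reported calls are. For Pol II in hrde-1 against WT at 15C, 23C and p15C (1, 2 and 2 members), a pseudocount of 3 gave 1 at 23C and 1 at p15C, input subtraction 0 and 0, fitting only the libraries compared 1 at 23C, no fold minimum 5 at 23C, and generation as a block 5 at 15C. For H3K9me3 (9, 10 and 9 members), a pseudocount of 3 gave 5 at 15C, input subtraction 3 at 15C, and no fold minimum 15, 27 and 24; the block changed no count. In comparisons with 0 members, input subtraction gave in Pol II 1 for heat in WT, 2 for heat in hrde-1, 1 and 2 after heat in WT and hrde-1, and 1 for the difference between strains, and in H3K9me3 2, 3 and 2 for heat in hrde-1, after heat in hrde-1 and the difference. For heat in hrde-1, H3K9me3 gave 1 with a pseudocount of 0.5, with quantile normalization and with no fold minimum. Pol II after heat in WT gave 2 from only the libraries compared, and the block 1 for the difference. Shares of all genes under these alternatives are not given, so the counts cannot be read as an excess.

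Alternatives chosen after seeing the data were to count math-18, which gave 2 for Pol II at 15C, and to keep members with whole reads, which gave 0, 1 and 1 for Pol II and 5, 4 and 3 for H3K9me3. Leaving out 1 library gave 1 to 3 members for Pol II at 23C and p15C, 0 to 2 for heat in hrde-1 and 0 to 1 after heat in WT, and for H3K9me3 9 at 15C, 9 to 10 at 23C, 7 to 10 at p15C and 0 to 1 for heat in hrde-1. Median centring moved the all-gene Pol II median from 0.05 to -0.14 at 15C, from 0.12 to -0.07 at p15C and from 0.14 to -0.14 for heat in WT, and the share of all called genes that were higher from 88.4% to 78% at 15C and from 86.9% to 68.5% at p15C (71.4% with quantile normalization). The members' H3K9me3 medians stayed below 0, at -0.49, -0.36 and -0.52 under median centring, and at -0.23, -0.20 and -0.20 under quantile normalization, against -0.41, -0.29 and -0.42 as reported.

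Depth limits the input correction, since the median member had 4 to 28 input reads. The causes of these changes were not tested.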
